A study of Homo sapiens with 12 samples.

Results

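The genes described here are 9 surface proteins of B cells that are targets of therapeutic antibodies, engineered T cells or antibody-drug conjugates. They are MS4A1 (CD20), the target of both antibodies of the study, and CD22, CD37, CD38, CD52, CD40, TNFRSF13C (BAFF receptor), CD27 and CD70. They were picked by name, and each of the 9 symbols matched 1 row of the 58884 genes in the count table. The question asked of them was whether the RNA of CD20 changed alone or together with the other targets. RNA was sequenced from U2932 and TMD8, established human cell lines of activated B-cell (ABC) subtype diffuse large B-cell lymphoma (DLBCL), both labelled wild type. Cultures received 20 µg/mL of rituximab (R), ofatumumab (OF) or a human IgG1 isotype control for 4 h, which gave 6 conditions with 2 replicates each. For each line, replicates 1 and 2 were cultures kept apart for a week before treatment, so all libraries of a line descend from 1 culture, and no untreated cells were analysed here.

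CD20 spans the membrane of mature B cells several times and is present from the pre-B stage until B cells become plasma cells. R and OF are monoclonal antibodies (mAbs) that bind its extracellular loops at different places, R on the large loop and OF on a region that takes in the small loop. The other targets fall into classes. CD22 is an inhibitory receptor for sialic acids, CD37 a tetraspanin, CD38 an enzyme that breaks down NAD, and CD52 a short protein held by a lipid anchor. CD40, TNFRSF13C and CD27 are receptors of the tumour necrosis factor (TNF) family that feed survival signals into B cells, and CD70 is the ligand of CD27.

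The coding stretch below is shown because it holds the centre of the rituximab epitope. It lies at chr11:60466038-60466157 of GRCh38 on the + strand, within exon 5 of 7 of MS4A1, and the 4 codons in capitals encode the alanine, asparagine, proline and serine at residues 170 to 173 of the 297-residue protein, in the large loop.

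MS4A1 exon 5: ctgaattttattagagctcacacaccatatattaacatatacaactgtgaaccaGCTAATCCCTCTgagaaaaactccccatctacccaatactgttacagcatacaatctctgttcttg

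Libraries held 15440226 to 27110612 counts on genes. B cell identity was checked with 8 markers, MS4A1 and CD22 among them, all of which reached 1 CPM (counts-per-million) in both lines, and their summed level lay between 2244 and 3413 CPM in U2932 and between 2508 and 3674 CPM in TMD8. T cell, myeloid and natural killer cell markers summed to at most 10.1, 1.34 and 0.564 CPM, most of the first from TRAC in U2932 (7.03 to 9.56 CPM), and CD3D, CD3G, S100A8, FCGR3A, GNLY and NCR1 were at or below 0.0592 CPM in every library. The plasma cell markers, which B-cell lymphomas can share, summed to at least 1348 CPM in U2932 and at most 272.5 CPM in TMD8. Among them PRDM1 alone went the other way, at 27.2 to 35.3 CPM in U2932 and 66.8 to 219.8 CPM in TMD8. The second replicates of OF and isotype in TMD8 were unlike the rest of that line, with 7.16% and 6.50% of counts on ribosomal protein genes against at least 10.0% in the other 4 libraries, and with fewer mitochondrial counts (3.73% and 3.99% against at least 5.70%). As this pair stood apart, changes of the targets against isotype in TMD8 are also given without it. These are estimates only, as 1 library each of OF and isotype then remains. In U2932 the ribosomal protein share moved with the treatment, at 6.03% to 6.56% with anti-CD20 mAbs and at 4.44% and 4.74% with isotype, and its part in the results below was not tested. These are bulk samples, in which fewer cells that express a gene and less RNA per cell cannot be told apart.

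MS4A1 RNA was higher after either mAb than with the isotype control in U2932. The gene lies at chr11:60455752-60470760 on the + strand and shares no exon bases with another annotated gene. In U2932 it reached 1498 and 1755 CPM with R and 1516 and 1519 CPM with OF, against 899 and 1003 CPM with isotype. All 4 anti-CD20 libraries therefore lay above both isotype libraries. The rise was 1.71-fold with R (log2 0.77, SE 0.083, adjusted p = 1.09e-07) and 1.60-fold under OF (log2 0.67, SE 0.083, adjusted p = 1.04e-06), by edgeR's quasi-likelihood test with p-values adjusted over all 14635 genes tested. Within replicate 1 the log2 change was 0.74 for R and 0.75 for OF, and within replicate 2 it was 0.81 and 0.60. After correction for the GC content of genes, which is 37.9% in MS4A1 and the lowest of the 9 genes, the estimates were 0.87 and 0.82.

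In TMD8, MS4A1 stood at 2255 and 1951 CPM with R, at 1921 and 1417 CPM with OF, and at 1297 and 891 CPM with isotype. Both isotype libraries were again the lowest of the line, although OF replicate 2 exceeded isotype replicate 1 by less than the replicates of either group differed. The log2 change was 0.94 for R (SE 0.28, adjusted p = 0.188) and 0.61 for OF (SE 0.28, adjusted p = 0.384), so neither passed the limit of 0.10 in edgeR. By the study's methods each replicate culture was divided among the 3 antibodies, though no label ties a number to a culture, and isotype was lower than the mAb within both numbers, by 0.80 and 1.13 for R and by 0.57 and 0.67 for OF on the log2 scale. With replicate number as a block the change was 0.97 for R (SE 0.17, adjusted p = 0.0141) and 0.62 for OF (SE 0.17, adjusted p = 0.064), and both passed. Without the pair of libraries that stood apart, the estimates were 0.69 for R and 0.56 for OF. Spread within TMD8 in that fit came from the R replicates alone, so no test is given. Leaving out isotype replicate 1 brought the R change to 1.24 (adjusted p = 0.0974), the only fit without a single library in which it passed.

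**Figure D1:**
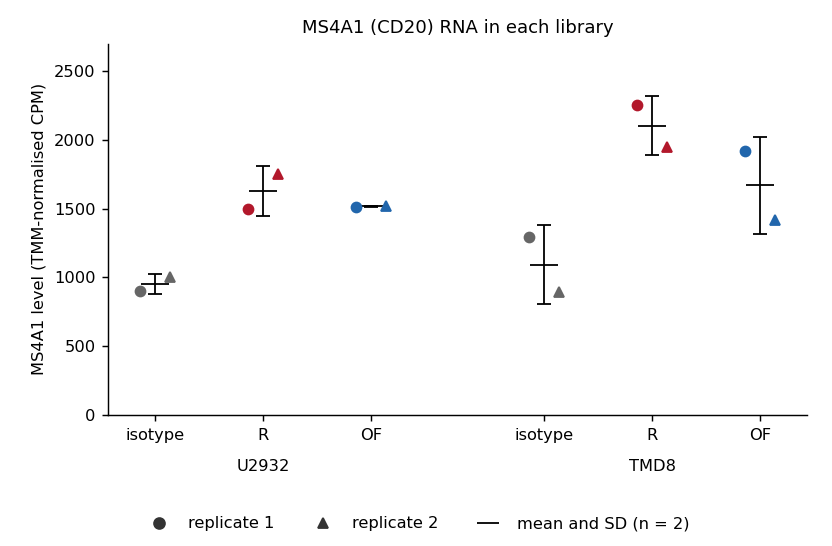
MS4A1 level in TMM-normalised CPM (y axis, linear, from 0) for each library of the 6 conditions (x axis), with replicates 1 and 2 as circles and triangles and black lines for the mean and SD of 2 libraries. In U2932 the isotype libraries lie at 899 and 1003 CPM and the anti-CD20 libraries at 1498 to 1755 CPM, and in TMD8 the corresponding values are 891 and 1297 CPM against 1417 to 2255 CPM.

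On a scale shared by both lines, CPM per kb of transcript, MS4A1 was highest in TMD8 with R (632.5 ± 61.1, mean ± SD, n = 2). TMD8 with OF (502 ± 103), U2932 with R (447 ± 51.9) and U2932 with OF (415 ± 1.02) followed. U2932 with R overlapped both of its neighbours in this order, while U2932 with OF lay below both TMD8 OF libraries and TMD8 with R above them. The isotype conditions were lowest, at 330.5 ± 82.4 in TMD8 and 261 ± 20.9 in U2932, and their ranges overlapped. The MS4A1 change did not differ detectably between lines, with an interaction of -0.16 for R (SE 0.28, adjusted p = 0.884) and 0.07 for OF (SE 0.28, adjusted p = 1.0) on the log2 scale over 12 libraries. Nor was a difference between R and OF detected in either line. The log2 difference was 0.10 in U2932 (SE 0.083, adjusted p = 0.91) and 0.33 in TMD8 (SE 0.28, adjusted p = 0.733). It was 0.14 in TMD8 without the pair that stood apart. Both comparisons with isotype share the isotype libraries, so they are not independent of each other.

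The change in U2932 was not confined to MS4A1. With R, 6 of the 9 targets rose and 0 fell, where 34.2% of all genes tested passed in either direction (16.8% higher and 17.4% lower). With OF, 7 of 9 rose and 0 fell, where 36.4% of genes passed (18.7% higher and 17.8% lower). The median log2 change of the 9 genes was 0.43 with R and 0.38 with OF, against -0.02 and 0.01 over all genes tested. MS4A1 had the largest estimate of the 9 with either mAb and was the only one past the test with a change of at least 1.5-fold, a limit that 5.19% and 5.9% of all genes tested passed in the upward direction. Its R estimate exceeded those of 96.6% of genes tested, and its OF estimate those of 94.4%. When all 12 libraries were fitted together, only MS4A1 (adjusted p = 0.0553 and 0.085) and CD27 passed in U2932, with 7.46% and 8.69% of genes called.

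**Figure D2:**
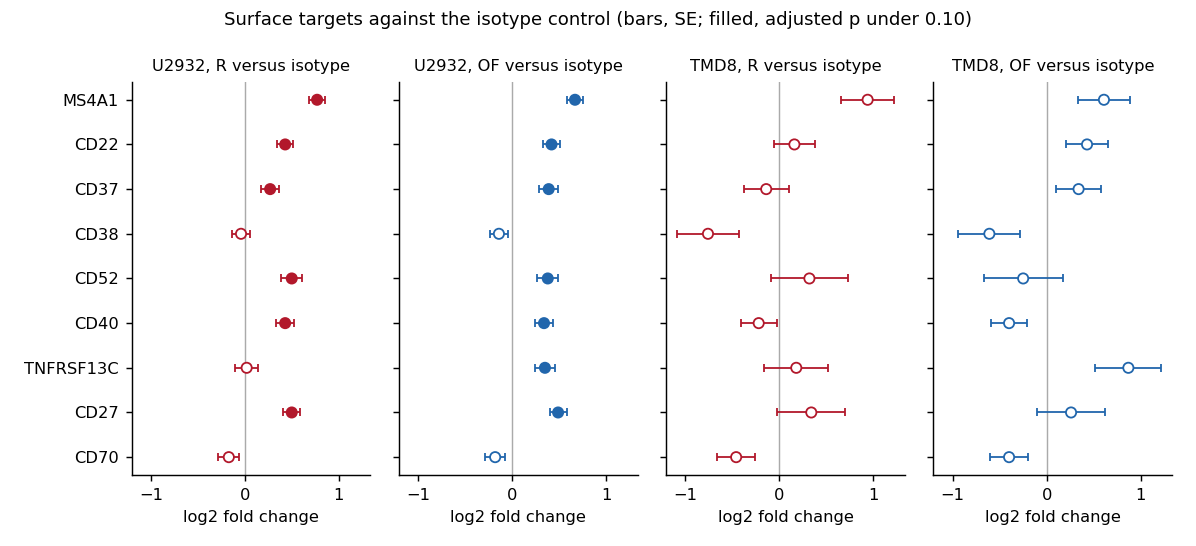
Log2 fold change against isotype (x axis) of the 9 surface targets (y axis) in edgeR, one panel per cell line and mAb, with bars for the SE and filled points for an adjusted p under 0.10. In U2932, 6 points are filled with R and 7 with OF, all to the right of 0 and with MS4A1 farthest right at 0.77 and 0.67, and in TMD8 no point is filled.

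CD22, the inhibitory receptor of the B-cell receptor complex, lies at chr19:35319261-35347355. In U2932 it reached 207 and 197 CPM with R and 198 and 203 CPM with OF, against 152 and 146 CPM with isotype. The 4 anti-CD20 libraries were all higher, and the gene rose 1.35-fold with R (log2 0.43, adjusted p = 0.000429) and 1.34-fold under OF (log2 0.42, adjusted p = 0.00055). In TMD8 it stood at 175 and 178 CPM with R, 184 and 244 CPM with OF, and 133 and 183 CPM with isotype. The higher value of OF and of isotype came from the libraries that stood apart, and the log2 change was 0.16 for R (adjusted p = 0.768) and 0.43 for OF (adjusted p = 0.433). Without that pair the CD22 estimates were 0.40 and 0.45.

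CD37, a tetraspanin of mature B cells, lies at chr19:49335171-49343335. Its U2932 levels were 101 and 98.7 CPM with R, 109 and 108 CPM with OF, and 91.3 and 74.0 CPM with isotype. It rose by 0.39 on the log2 scale for OF (adjusted p = 0.00412) and by 0.27 for R (adjusted p = 0.0439). The R call was lost without R replicate 1, R replicate 2 or isotype replicate 2 (adjusted p = 0.154, 0.118 and 0.327) and with scaling by library size alone (adjusted p = 0.233). In TMD8 it was more abundant, with 302 and 332 CPM under R, 395 and 486 CPM under OF, and 276 and 421 CPM under isotype, and the groups overlapped. The log2 change was -0.14 for R (adjusted p = 0.82) and 0.34 for OF (adjusted p = 0.599). Without the libraries that stood apart, the R estimate turned to 0.20 and the OF estimate was 0.51.

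CD52, the target of alemtuzumab, lies at chr1:26317957-26320523 and shares the end of an exon with UBXN11 on the opposite strand. It was measured at 58.2 and 64.3 CPM with R, 51.5 and 60.8 CPM with OF, and 45.8 and 40.8 CPM with isotype in U2932. It rose 1.41-fold with R (log2 0.50, adjusted p = 0.000846) and 1.30-fold under OF (log2 0.38, adjusted p = 0.00921), and the OF call was lost without OF replicate 2 (adjusted p = 0.30). In TMD8 it was close to the limit of detection, at 1.16 to 2.84 CPM over the 6 libraries, with overlapping groups and log2 changes of 0.32 for R (adjusted p = 0.736) and -0.25 for OF (adjusted p = 0.854). Leaving out the pair that stood apart gave 0.0 and -0.17.

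CD38, the target of daratumumab, did not share the rise. It lies at chr4:15778275-15853230, and in U2932 it was found at 120 and 115 CPM with R, 111 and 109 CPM with OF, and 113 and 129.7 CPM with isotype. The R libraries lay between the isotype libraries and the OF libraries just below both. The log2 change was -0.04 for R (adjusted p = 0.776) and -0.14 for OF (adjusted p = 0.278). Without isotype replicate 1, which was the lower of the pair, the OF difference passed at -0.25 (adjusted p = 0.0268), as it did with scaling by library size alone, at -0.22 (adjusted p = 0.0724). In TMD8 CD38 was near the limit of detection, at 1.47 and 1.86 CPM with isotype and 0.947 to 1.19 CPM with anti-CD20 mAbs, from 16 to 44 counts per library. The 4 anti-CD20 libraries were the lower ones, with log2 changes of -0.76 for R (adjusted p = 0.33) and -0.61 for OF (adjusted p = 0.468), and only the R change passed when all 12 libraries were fitted together (adjusted p = 0.0929). When the pair that stood apart was left out, the changes were -0.94 and -0.66.

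The TNF family receptors differed from each other. CD27, the receptor of CD70 and a marker of memory B cells, lies at chr12:6444867-6451718. In U2932 it reached 131.0 and 129 CPM with R and 131 and 126 CPM with OF, against 96.7 and 86.9 CPM with isotype, so the mAb and isotype libraries did not overlap. It rose 1.42-fold with R (log2 0.50, adjusted p = 0.000159) and 1.40-fold under OF (log2 0.49, adjusted p = 0.000236). CD27 shares exon bases with CD27-AS1 on the opposite strand, and as the strand setting of the counting is not given in the sources used here, reads of the pair cannot be told apart. TMD8 held 0.713 to 1.01 CPM of CD27, from 13 to 23 counts per library. Its log2 changes there were 0.34 for R (adjusted p = 0.687) and 0.26 for OF (adjusted p = 0.82), or 0.39 and 0.46 without the libraries that stood apart.

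CD40, which receives the co-stimulatory signal of CD40 ligand from T cells, lies at chr20:46118272-46129863. In U2932 its level was 82.0 and 82.7 CPM with R, 79.8 and 74.6 CPM with OF, and 59.3 and 62.6 CPM with isotype. It rose by 0.43 for R (adjusted p = 0.000982) and by 0.34 for OF (adjusted p = 0.0073) on the log2 scale, and the OF call was lost without OF replicate 1 (adjusted p = 0.173). In TMD8 the isotype libraries stood instead at 141 and 116 CPM, against 117 and 103 CPM with R and 108 and 86.4 CPM with OF, and only R replicate 1 exceeded the lower isotype library. The log2 change there was -0.22 for R (adjusted p = 0.606) and -0.40 for OF (adjusted p = 0.399). With the replicate block the OF change passed at -0.40 (adjusted p = 0.0853), and the R change did not, at -0.22 (adjusted p = 0.283). The OF call was lost with DESeq2 and the block (adjusted p = 0.126). Without the libraries that stood apart the estimates were -0.37 and -0.40.

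The response of CD40 differed between lines in some fits. Its interaction (the U2932 change minus the TMD8 change) was 0.66 for R (SE 0.20, adjusted p = 0.237) and 0.74 for OF (SE 0.20, adjusted p = 0.275) without a block. With the block, adjusted p was 0.0319 and 0.0338, and CD40 was the only one of the 9 genes to pass, where 6.04% and 2.23% of genes passed. Without a block, 0 of 9 genes passed either interaction in edgeR, where 0.321% and 0.105% of genes were called, 2 and 1 of the 9 had an unadjusted p under 0.05, and DESeq2 called CD40 alone in both (adjusted p = 0.0711 and 0.0548), where it called 3.37% and 1.58% of genes. The OF interaction also passed in edgeR without TMD8 isotype replicate 2 (log2 0.87, adjusted p = 0.0818).

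TNFRSF13C, the receptor for the B-cell survival factor BAFF, lies at chr22:41922023-41926818 on the - strand. In U2932 it was measured at 22.7 and 22.3 CPM with R, 29.3 and 27.5 CPM with OF, and 24.0 and 20.5 CPM with isotype. OF was the higher condition, with a log2 change of 0.35 (adjusted p = 0.0199) against 0.02 for R (adjusted p = 0.925). The OF call was lost without OF replicate 1 or isotype replicate 2 (adjusted p = 0.198 and 0.129). In TMD8 the levels were 68.4 and 73.6 CPM with R, 82.0 and 147 CPM with OF, and 45.6 and 79.7 CPM with isotype. The larger value of OF and of isotype belonged to the libraries that stood apart, and the log2 change was 0.87 for OF (SE 0.35, adjusted p = 0.33) and 0.18 for R (SE 0.34, adjusted p = 0.835). With the replicate block the OF change passed (log2 0.87, adjusted p = 0.0276), and within replicates it was 0.85 and 0.88. Without the libraries that stood apart, the estimates were 0.84 for OF and 0.64 for R.

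CD70, the ligand of CD27, lies at chr19:6583183-6604103 on the - strand, and it was lower with anti-CD20 mAbs than with isotype in each library of both lines. In U2932 it stood at 32.6 and 37.8 CPM with R, 34.6 and 35.3 CPM with OF, and 39.5 CPM in both isotype libraries. The log2 changes of -0.17 (adjusted p = 0.262) and -0.18 (adjusted p = 0.222) did not pass. They passed with the GC content correction, at -0.23 and -0.34 (adjusted p = 0.0677 and 0.00864), and with scaling by library size alone, at -0.27 and -0.26 (adjusted p = 0.0567 and 0.0666). In TMD8 CD70 was found at 85.4 and 74.9 CPM with R, 96.0 and 71.0 CPM with OF, and 121 and 99.2 CPM with isotype, again with all anti-CD20 libraries below both isotype libraries. The log2 change was -0.46 for R (adjusted p = 0.338) and -0.40 for OF (adjusted p = 0.436). It passed with the replicate block (-0.45 and -0.41, adjusted p = 0.0579 and 0.0877), although the R call was lost when the block was joined to the GC content correction. The OF call was lost with DESeq2 and the block (adjusted p = 0.136). Without the libraries that stood apart, the change was -0.60 for R and -0.34 for OF.

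**Figure D3:**
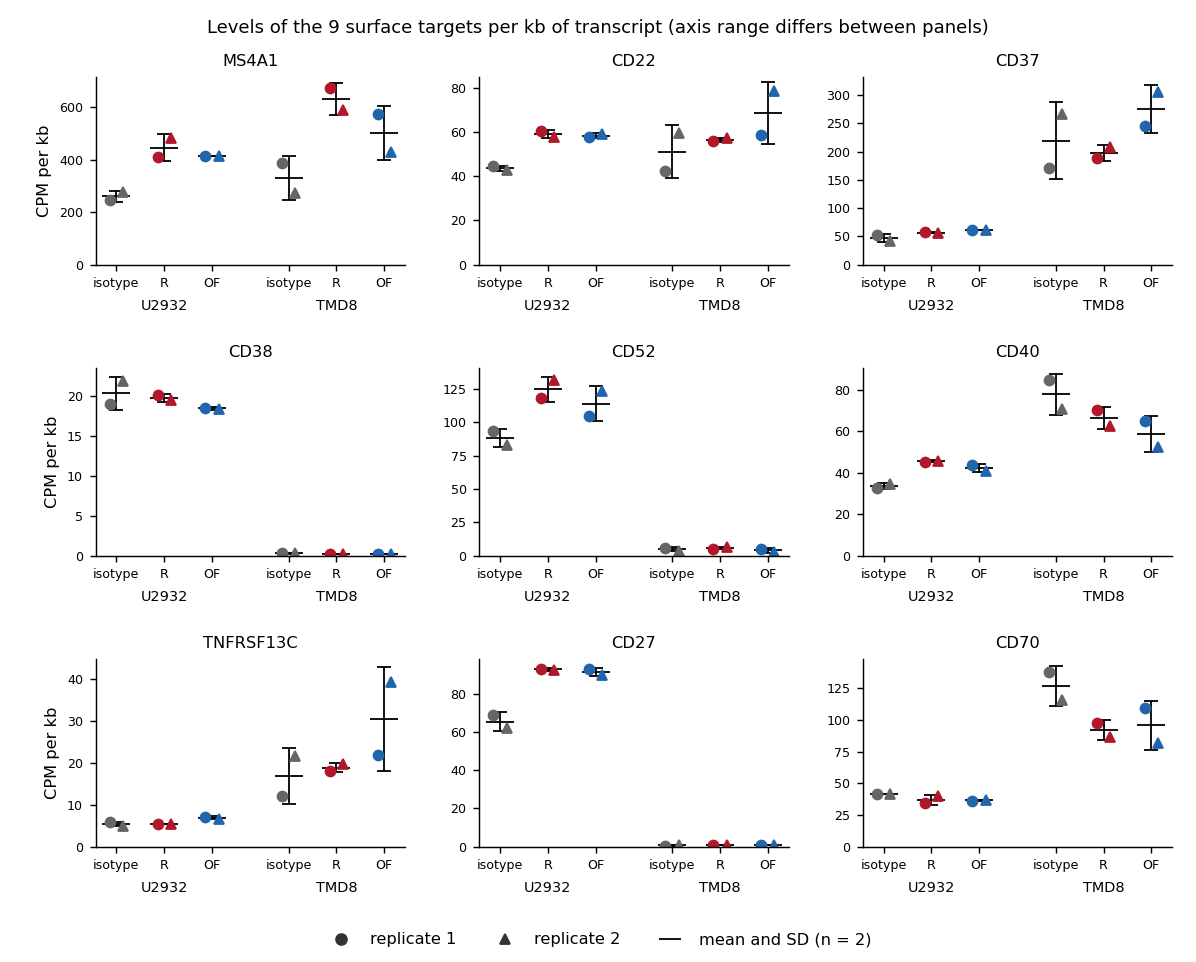
Level of each target in CPM per kb of transcript, normalised over all 12 libraries (y axis, linear, from 0, its range differing between panels), by condition (x axis), with replicates 1 and 2 as circles and triangles and black lines for the mean and SD of 2 libraries. CD38, CD52 and CD27 are near 0 in TMD8, and CD40 lies above its isotype level with both mAbs in U2932 and below the isotype mean in TMD8.

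In TMD8 as a whole, 0 of the 9 targets passed with either mAb in edgeR without a block, where 0.647% of genes passed with R and 0.815% with OF. At an unadjusted p under 0.05 there was 1 of 9 in each comparison (MS4A1 with R, TNFRSF13C with OF), and DESeq2 called 1 with R (MS4A1, adjusted p = 0.0266), where it called 5.07% of genes, and 0 with OF, where it called 4.18%, leaving CD27 in both comparisons and CD38 with R without an adjusted p. With the replicate block, 2 passed with R (MS4A1 higher, CD70 lower), where 17.7% of genes passed, and 4 with OF (MS4A1 and TNFRSF13C higher, CD40 and CD70 lower), where 14.3% passed. Without the libraries that stood apart the counts were 5 and 6 of 9, where 30.3% and 23.4% of genes passed. The counts and shares without those libraries are not read as calls. That fit holds 1 library each of OF and isotype, and its spread within TMD8 came from the R replicates alone. The median log2 change of the 9 genes without a block was 0.16 with R and 0.26 with OF, against -0.02 and -0.01 over all genes tested.

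**Figure D4:**
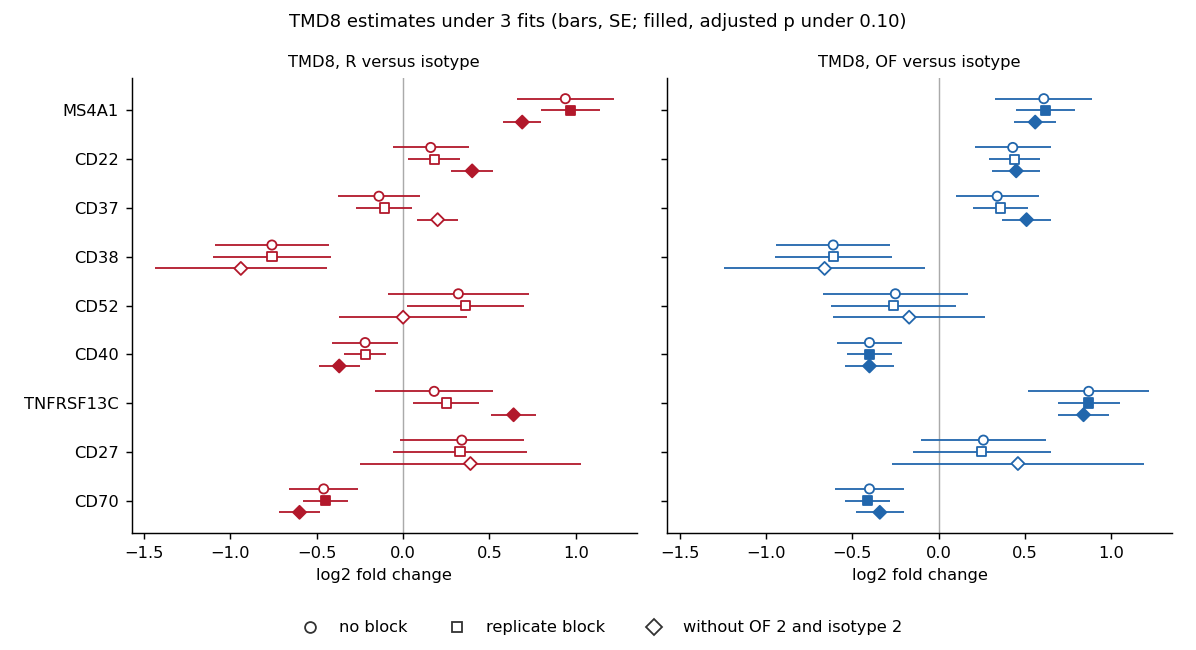
Log2 fold change against isotype in TMD8 (x axis) of the 9 targets (y axis) for R and OF under 3 fits, without a block (circles), with the replicate block (squares) and without OF replicate 2 and isotype replicate 2 (diamonds), with bars for the SE and filled symbols for an adjusted p under 0.10. The MS4A1 estimates lie between 0.56 and 0.97 in all 6 fits shown, while those of CD37 with R lie on both sides of 0, from -0.14 to 0.20. The diamonds rest on replicate 1 alone for OF and isotype, and their fill is not read here.

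Whether MS4A1 rose more than the other targets can be read within each library from its ratio to each of them. In U2932, the log2 ratio of MS4A1 to the other gene was higher in all 4 anti-CD20 libraries than in both isotype libraries for 7 of the 8 other genes. The same held for 81.4% of all genes tested in the line, so the count says nothing particular about the targets. The exception was CD27, whose ratio lay between 3.51 and 3.76 with the mAbs and between 3.22 and 3.53 with isotype. The mean gain of MS4A1 was largest over CD70 (0.94 with R and 0.85 with OF) and CD38 (0.81 with both). With R it was smallest over CD27 and CD52 (0.27 for each), and with OF over CD27 (0.19) and CD22 (0.25). In TMD8 the 4 ratios stood above both isotype values for 4 of the 8, namely CD38, CD52, CD40 and CD70, with mean gains of 1.18 and 1.02 over CD40 and 1.42 and 1.03 over CD70, and this held for 54.4% of all genes tested. Set against the isotype library of the same replicate number, the ratio was higher in all 4 anti-CD20 libraries for 8 of 8 genes in U2932 and 7 of 8 in TMD8, where 85.7% and 83.9% of genes tested were. CD22, CD37 and CD27 joined in TMD8, with the smallest gains at 0.10, 0.05 and 0.15, all in OF replicate 1. In U2932 the smallest gains were 0.02 over CD52 and 0.06 over CD37 and CD27, all in OF replicate 2. For TNFRSF13C the mean gain in TMD8 was 0.73 with R and -0.25 with OF, and within replicates the OF gain was -0.28 and -0.21. The difference between the changes of MS4A1 and of another gene was not tested.

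**Figure D5:**
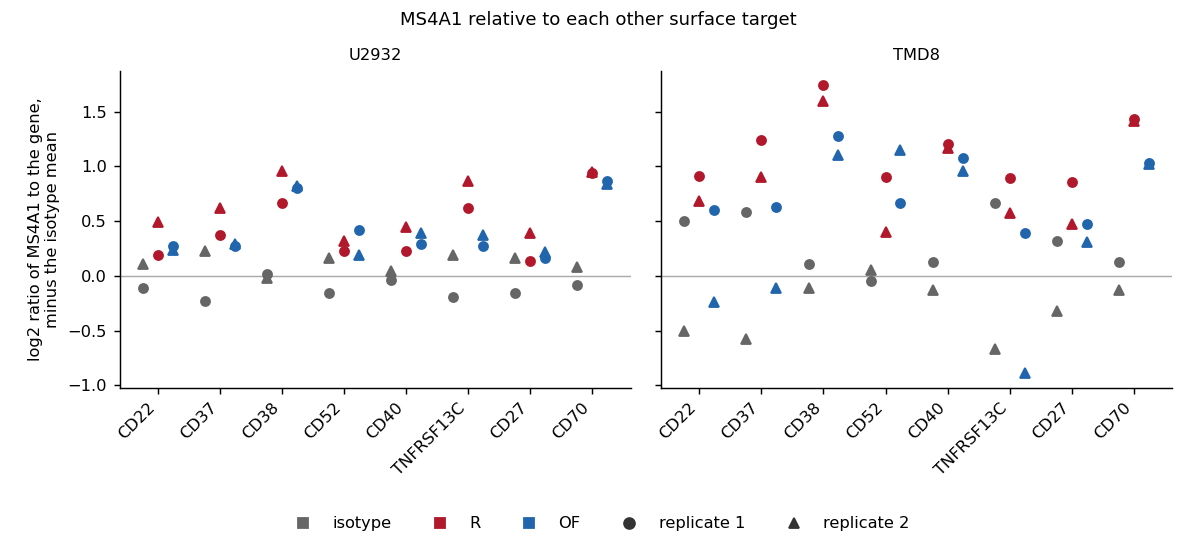
Log2 ratio of MS4A1 to each other target in a library minus the mean of the isotype libraries (y axis), by gene (x axis) and cell line (panels), coloured by antibody, with replicates 1 and 2 as circles and triangles. In U2932 the anti-CD20 points lie above both isotype points for each gene but CD27, and in TMD8 they do so for CD38, CD52, CD40 and CD70.

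No target was called between R and OF. In edgeR 0 of 9 passed in either line, where 0.00683% of genes passed in U2932 and 0.0% in TMD8, and DESeq2 also called 0. At an unadjusted p under 0.05, 1 of 9 was found in U2932 and 0 in TMD8. That gene was TNFRSF13C, which was lower with R than with OF by a log2 difference of -0.34 in U2932 (SE 0.12, adjusted p = 0.91). In TMD8 the corresponding difference was -0.69 (SE 0.35, adjusted p = 0.733), and the R and OF libraries did not overlap in either line. That value rested on OF replicate 2, the library at 147 CPM, and without the pair that stood apart it was -0.20.

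Levels of most targets differed between the lines, as did those of most genes. Under isotype, 7 of the 9 passed between U2932 and TMD8, where 66.8% of all genes did, so the count says nothing particular about the targets. CD27, CD38 and CD52 were higher in U2932 by 6.79 (SE 0.17), 6.06 (SE 0.17) and 4.27 (SE 0.26) on the log2 scale. CD37 was lower in U2932, with a log2 difference of -2.22 (SE 0.21), as were TNFRSF13C at -1.64 (SE 0.29), CD70 at -1.61 (SE 0.16) and CD40 at -1.21 (SE 0.14). CD22 at -0.23 (SE 0.17, adjusted p = 0.277) and MS4A1 at -0.34 (SE 0.20, adjusted p = 0.162) did not pass, although MS4A1 passed with the GC content correction (-0.47, adjusted p = 0.0183). Without TMD8 isotype replicate 2 the MS4A1 estimate was -0.58, and without TMD8 isotype replicate 1 the CD22 estimate was -0.44. The fit with the replicate block compares the lines at replicate 1 alone, and replicate numbers are not paired between lines. Its MS4A1 value of -0.58 is therefore not read as a call. Per kb of transcript, MS4A1 was the most abundant of the 9 under isotype in U2932 (261), followed by CD52 (88.3 ± 7.07) and CD27 (65.5 ± 4.76), and TNFRSF13C the least (5.38 ± 0.58). In TMD8, MS4A1 (330.5) was followed by CD37 (219 ± 67.7) and CD70 (138 and 115 in its 2 libraries), and the means of MS4A1 and CD37 differed by less than the sum of their SDs.

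Promoters are shown for CD27, CD52 and CD38, the genes that were near the limit of detection in TMD8, of which CD27 and CD52 rose in U2932 and CD38 did not. The sequences are those of RefSeq on GRCh38.p14, from 250 bases before to 50 after the start site, and 4 of the 9 genes matched. Both strands were searched for an octamer motif (ATGCAAAT), an ETS motif (GAGGAA), an E-box (CAGGTG), an EBF motif (TCCC and GGGA around 2 bases of any kind) and an NF-kB motif (GGGA and TTCC around 2 such bases), which 1.77%, 27.9%, 20.6%, 1.21% and 1.61% of 35116 promoters held. No match overlapped another, and capitals mark the matches. The CD27 window (chr12:6443642-6443941, + strand) held 1 E-box and 1 ETS motif, the CD52 window (chr1:26317708-26318007, + strand) 1 ETS motif and the CD38 window (chr4:15778078-15778377, + strand) 1 E-box. The window of CD22 held 0 of the 5 motifs. The RefSeq start sites are not always the gene starts given above, since the CD27 window ends before that start and the CD22 window lies inside the gene.

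CD27 promoter: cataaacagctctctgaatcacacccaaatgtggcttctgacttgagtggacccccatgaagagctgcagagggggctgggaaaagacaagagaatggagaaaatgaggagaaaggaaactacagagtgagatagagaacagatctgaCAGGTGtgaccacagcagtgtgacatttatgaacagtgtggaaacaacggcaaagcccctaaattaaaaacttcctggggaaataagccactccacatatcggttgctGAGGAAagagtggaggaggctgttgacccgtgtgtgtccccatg
CD52 promoter: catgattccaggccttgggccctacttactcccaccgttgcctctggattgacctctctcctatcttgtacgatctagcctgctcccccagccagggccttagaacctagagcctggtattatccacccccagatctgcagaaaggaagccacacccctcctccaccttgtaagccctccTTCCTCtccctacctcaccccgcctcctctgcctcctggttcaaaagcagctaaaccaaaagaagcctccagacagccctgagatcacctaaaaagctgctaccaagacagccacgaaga
CD38 promoter: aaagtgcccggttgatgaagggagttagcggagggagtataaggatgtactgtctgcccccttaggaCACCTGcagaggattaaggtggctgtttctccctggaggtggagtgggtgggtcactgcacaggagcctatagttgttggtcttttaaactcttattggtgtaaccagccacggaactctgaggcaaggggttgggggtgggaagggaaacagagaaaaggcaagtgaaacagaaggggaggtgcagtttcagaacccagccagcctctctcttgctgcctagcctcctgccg

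The MS4A family encodes relatives of CD20. Of 15 other members, 1 was abundant enough to be tested in U2932 and 5 in TMD8. MS4A7 fell in U2932 with both mAbs, from a mean of 5.59 CPM with isotype to 2.68 CPM with R (log2 -1.06, adjusted p = 0.000532) and 3.18 CPM under OF (log2 -0.81, adjusted p = 0.00481), which is the opposite direction to MS4A1. In TMD8, 0 of 5 passed without a block in edgeR and 1 had an unadjusted p under 0.05 in each comparison, with medians of 0.13 with R and 0.18 with OF, where 0.647% and 0.815% of genes passed. MS4A6A there had log2 changes of 0.92 and 0.66 (adjusted p = 0.195 and 0.351). They passed with the replicate block (adjusted p = 0.00548 and 0.0174), a fit in which 17.7% and 14.3% of genes passed. Without the block MS4A4E had -0.04 and 0.18 (adjusted p = 0.942 and 0.792), and MS4A7 had -0.01 and -0.06 (adjusted p = 0.989 and 0.945).

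Transcription factors that act on MS4A1 or maintain B-cell identity moved in both directions. In U2932, 1 of 9 rose and 4 fell with R (median -0.16), and 2 rose and 1 fell with OF (median 0.06), where 16.8% of all genes rose and 17.4% fell with R, and 18.7% and 17.8% with OF. POU2F2, an octamer-binding factor, rose by 0.38 for R (adjusted p = 0.00088) and by 0.66 for OF (adjusted p = 1.32e-06). IRF8, a factor of germinal centre B cells, fell from 403 CPM to 249.8 CPM with R (log2 -0.69, adjusted p = 9.34e-07) and 267 CPM under OF (log2 -0.60, adjusted p = 8.05e-06). IRF4, characteristic of the ABC subtype, had log2 changes of 0.01 and 0.06 (adjusted p = 0.964 and 0.618). In TMD8, 0 of 9 passed with either mAb in edgeR, with medians of -0.35 and 0.05 and 1 at an unadjusted p under 0.05 in each, and with the replicate block 2 fell with R and 1 with OF, IRF8 among them at adjusted p = 0.0548 and 0.0279. The shares of all genes past the test were 0.647% and 0.815% without the block and 17.7% and 14.3% with it. POU2F2 in TMD8 had log2 changes of -0.32 for R and 0.05 for OF without the block (adjusted p = 0.513 and 0.944).

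Of 22 further surface proteins of B cells that antibodies or engineered T cells address, 18 were tested in U2932. With R, 8 rose and 5 fell (median 0.23), and with OF 6 rose and 2 fell (median 0.09), against 16.8% of all genes higher and 17.4% lower with R, and 18.7% and 17.8% with OF. CD79A, a signalling chain of the B-cell receptor, rose from 473 CPM to 850.4 CPM with R (log2 0.85, adjusted p = 1.8e-08) and 848 CPM under OF (log2 0.84, adjusted p = 2.3e-08), estimates above those of MS4A1. The order reversed with the GC content correction, at 0.78 and 0.67 for CD79A against 0.87 and 0.82 for MS4A1. CD74, the invariant chain of MHC class II, rose by 0.40 and 0.51 (adjusted p = 0.000331 and 1.96e-05). SLAMF7, the target of elotuzumab, fell, with log2 changes of -0.61 and -0.71 (adjusted p = 1.4e-05 and 2.11e-06). In TMD8, where 20 were tested, CXCR5, the chemokine receptor that guides B cells into follicles, fell from 84.9 CPM to 26.6 CPM with R (log2 -1.68, adjusted p = 0.0697) and 38.7 CPM under OF (log2 -1.14, adjusted p = 0.0966). SLAMF7 fell there for OF (log2 -1.31, adjusted p = 0.0935), and 0 of 20 rose (medians 0.06 and 0.14), where 0.647% and 0.815% of genes passed in either direction. With the replicate block 4 rose and 5 fell with R, and 5 rose and 4 fell with OF. In that fit 17.7% and 14.3% of genes passed in either direction.

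Ligands and adaptors of CD40, CD27 and TNFRSF13C were tested for 13 of 14 genes in each line. In U2932, 2 rose and 3 fell with R (median -0.21), and 1 rose and 3 fell with OF (median -0.02), where 16.8% of all genes rose for R and 17.4% fell, and for OF 18.7% rose and 17.8% fell. TRAF3, an adaptor that restrains non-canonical NF-kB signalling, rose by 0.36 and 0.45 (adjusted p = 0.00654 and 0.00107), and BIRC2, a ubiquitin ligase of the same complex, had log2 changes of -0.34 and -0.42 (adjusted p = 0.00641 and 0.00104). BIRC3, the most abundant of the list in U2932, had 0.05 and -0.02 (adjusted p = 0.732 and 0.898). In TMD8, 2 fell with R and 1 with OF (medians -0.36 and -0.52), and 0 rose without a block. RELB, a subunit of non-canonical NF-kB, fell from 117 CPM to 47.4 CPM with R (log2 -1.30, adjusted p = 0.0697), and TRAF1 fell with both mAbs (log2 -0.96 and -0.98, adjusted p = 0.0993 and 0.095). With the replicate block 1 rose and 5 fell with each mAb. Among all genes 0.647% and 0.815% passed without the block, and 17.7% and 14.3% with it.

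Tetraspanins, the family of CD37, had 14 of 16 members tested in U2932, of which 6 rose and 1 fell with R (median 0.29) and 6 rose and 0 fell with OF (median 0.26). Of all genes, 16.8% rose and 17.4% fell with R, and 18.7% rose and 17.8% fell with OF. CD53 rose by 0.60 and 0.52 (adjusted p = 2.21e-05 and 0.000127), and CD81 by 0.52 and 0.64 (adjusted p = 0.0002 and 1.64e-05). In TMD8, 1 of 15 passed with each mAb (medians 0.09 and 0.25), where 0.647% and 0.815% of all genes did. It was CD151, which rose by 0.96 and 1.00 (adjusted p = 0.0979 and 0.0935), the OF call being lost with the GC content correction (adjusted p = 0.156).

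The CD22 inhibitory axis comprises the kinase and phosphatases that CD22 recruits, the enzymes that make its sialic acid ligands and related receptors. In U2932, 9 of 12 were tested, of which 2 rose and 1 fell with R (median 0.25) and 3 rose and 1 fell with OF (median 0.15). Over all genes the shares that rose and fell were 16.8% and 17.4% for R and 18.7% and 17.8% for OF. PTPN6, the phosphatase SHP-1 that CD22 recruits, rose from 12.8 CPM to 21.9 CPM with R (log2 0.78, adjusted p = 2.83e-05) and 20.4 CPM under OF (log2 0.67, adjusted p = 0.000172). ST6GAL1, which makes the sialic acid linkage bound by CD22, fell from 1665 CPM to 1181 CPM with R (log2 -0.50, adjusted p = 1.54e-05) and 1173 CPM under OF (log2 -0.51, adjusted p = 1.21e-05). CMAS, which activates sialic acid, rose by 0.44 and 0.36 in U2932 (adjusted p = 0.00164 and 0.00743) and with R in TMD8 (log2 1.18, adjusted p = 0.0979). In TMD8, 1 of 12 rose and 0 fell with each mAb (medians 0.19 and 0.13), against 0.647% and 0.815% of all genes in either direction, PTPN6 being the one for OF (log2 1.20, adjusted p = 0.0935). SIGLEC6, the most abundant of the list there, had log2 changes of 0.78 and 0.80 (adjusted p = 0.144 and 0.152) and passed with the replicate block (adjusted p = 0.0179 and 0.0196).

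The genes whose log2 CPM followed MS4A1 most closely over the 12 libraries, after the mean of each line was subtracted, were MTHFD2, a mitochondrial enzyme of folate metabolism (r = 0.992), RPA2, a subunit of replication protein A (r = 0.991), ZDHHC6, a palmitoyltransferase (r = 0.990), COMMD9 (r = 0.989) and RPL22, a ribosomal protein (r = 0.989). These correlations are a description over libraries that share treatment, line and depth, and 3.03% of the 12722 genes tested in both lines had r above 0.9, with a median of -0.0294. Of the other targets, CD27 followed MS4A1 most closely (r = 0.793), then CD52 (0.614), CD22 (0.374) and CD40 (0.299). TNFRSF13C (0.0436) and CD37 (0.0114) were near 0, and CD70 (-0.439) and CD38 (-0.548) were negative. The values of CD27, CD52 and CD38 include TMD8 libraries in which these genes were near the limit of detection, at 13 to 48 counts per library.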

How the data were processed

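Total RNA of 12 libraries was sequenced and trimmed, aligned and counted by the authors (Trim Galore 0.6.0, STAR 2.7.0e and GRCh38 in the submitters' processing notes). The annotation release and strand setting are not given in the sources used here. The deposited table holds raw counts per gene (15440226 to 27110612 per library), and 0 of its columns lacked a sample. Counts were tested with edgeR 4.0.16 in R 4.3.3 (TMM, filterByExpr with a minimum count of 10, quasi-likelihood test, Benjamini-Hochberg adjustment over all genes tested). Each line was fitted on its 6 libraries and differences between lines on all 12, and a gene passed at an adjusted p under 0.10, a limit taken from the study's account of R versus OF in TMD8, where its methods name none. Unless a library was left out, bulk p-values here measure the spread between 2 cultures of 1 line per condition. CPM are TMM-normalised, ratios use a prior count of 2, and lengths, GC content and gene positions come from GENCODE 29 on GRCh38. Promoters come from RefSeq.

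Alternatives were DESeq2 1.42.0, scaling by library size alone, no filter, a GC content correction (lowess, span 0.3), a replicate block, all 12 libraries in 1 fit and leaving out each library. DESeq2 with the block, the fits without the TMD8 pair that stood apart and the ratios within replicate numbers were chosen after seeing the data. Deviations of same-numbered libraries from their group means correlated at 0.2221, 0.2269 and 0.6871 between conditions in TMD8 and at -0.0478, 0.104 and -7e-04 in U2932. The pairing rests on the study's methods, by which each replicate culture received all 3 antibodies. Scripts were tested on simulated data. The 9 genes, the gene lists and the markers were chosen with earlier results of these data known. The genes named are the 9 targets, from each of 6 lists the 2 with the highest mean CPM and the 2 with the smallest unadjusted p among those past the test for R in each line, and the 5 that follow MS4A1 most closely.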

Additional observations from a re-analysis of the deposited data

Results flagged for a closer look

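CD40 was picked out because its change against isotype differed between the cell lines in a test of that difference. With the replicate block in edgeR, the U2932 change minus the TMD8 change was 0.66 on the log2 scale for R (SE 0.15, adjusted p = 0.0319) and 0.74 for OF (SE 0.15, adjusted p = 0.0338). In U2932 CD40 was higher in all 4 anti-CD20 libraries than in both isotype libraries, and within both replicate numbers of TMD8 it was lower with either mAb than with isotype (log2 -0.27 and -0.16 for R, -0.38 and -0.42 for OF). Without the block the adjusted p was 0.237 and 0.275. The R and OF differences share the isotype libraries. The cause was not tested.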

How the results depend on the processing

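In U2932 the MS4A1 change passed under each alternative run, at 0.66 to 0.88 for R and 0.58 to 0.76 for OF when 1 library was left out, and the replicate block, whose pairing is taken from the methods, changed no call among the 9 genes there. The number of the 9 that passed fell to 2 with either mAb in the fit of all 12 libraries and to 1 with a 1.5-fold limit. In TMD8 the MS4A1 change with R passed with DESeq2 (0.94), no filter (0.95), the replicate block (0.97) and all 12 libraries (0.94). It also passed with the block joined to the GC content correction (0.84) or to DESeq2 (0.97). Without the pair that stood apart it was 0.69, and over leave-one-out fits it ranged from 0.70 to 1.24. With OF the MS4A1 change passed with the replicate block (0.62), the GC content correction with it (0.69) and DESeq2 with it (0.62). Without the pair the OF estimate was 0.56. The targets past the test with R in TMD8 numbered 1 with DESeq2, 1 with no filter, 2 with the replicate block, 1 with the GC content correction added, 2 with DESeq2 and the block, 2 over all 12 libraries, 5 without the pair and 0 to 1 over leave-one-out fits. With OF they numbered 1 with no filter, 4 with the block, 4 with the GC content correction and block, 2 with DESeq2 and the block and 6 without the pair. For the difference between lines, 1 target passed with DESeq2, the block, the GC content correction and block, and DESeq2 and the block, for R and for OF alike. Without the pair 3 passed for R and 1 for OF, and leaving out 1 library gave 0 to 1 for OF. The MS4A1 difference for R turned to 0.01 with the GC content correction and 0.07 without the pair, and over leave-one-out fits it ran from -0.44 to 0.07 for R and from -0.22 to 0.30 for OF. The cause of these changes was not tested. The counts without the pair rest on 1 library each of OF and isotype in TMD8, and they are not read as calls.

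Other changes of sign concerned values that did not pass in the fit reported. For R against isotype in U2932, CD38 was 0.02 with the GC content correction with and without the block and -0.15 to 0.06 over leave-one-out fits, and TNFRSF13C was -0.08 by library size alone, -0.01 with no filter, -0.03 with the GC content correction with and without the block and -0.09 to 0.13 over leave-one-out fits. For R against OF in U2932, scaling by library size gave CD22 -0.01, CD27 0.0 and CD70 -0.01, and leave-one-out fits gave MS4A1 -0.02 to 0.21, CD22 -0.03 to 0.04, CD27 -0.01 to 0.04 and CD70 -0.10 to 0.11. For R against isotype in TMD8, CD37 was 0.08 with the GC content correction with and without the block and 0.20 without the pair, and CD52 was 0.0 without the pair. Leave-one-out fits there gave CD22 -0.05 to 0.41, CD37 -0.40 to 0.21 and TNFRSF13C -0.16 to 0.64, and CD52 with OF -0.82 to 0.17. For R against OF in TMD8, CD27 was -0.06 without the pair (-0.07 to 0.25 over leave-one-out fits), and CD70 was 0.21 with the GC content correction and 0.24 with the block added (-0.26 to 0.18). For the difference between lines with R, CD27 was -0.06 with the GC content correction and -0.04 with the block added, CD52 ran from -0.16 to 0.49 and TNFRSF13C from -0.62 to 0.21. With OF, CD22 was 0.0 with no filter (-0.27 to 0.22) and CD37 was -0.01 with the GC content correction with and without the block and -0.13 without the pair (-0.30 to 0.34). Between lines under isotype, CD22 was 0.04 without the pair (-0.44 to 0.04). CD27, CD38 and CD52 rest on 13 to 48 counts per library in TMD8.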
